A study of Mus musculus with 20 samples.

Results

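The transcripts described here encode splicing regulators: the hnRNP genes, the SR genes, and a set of other RNA-binding regulators of exon choice. They were taken from the expression table by symbol, as the protein-coding genes whose name starts with Hnrnp or is Srsf with a number, plus 18 listed genes (Rbfox1, Rbfox2, Mbnl1 to Mbnl3, Ptbp1 to Ptbp3, Qk, Celf1, Celf2, Tra2a, Tra2b, Rbm47, Khdrbs1, Khdrbs3, Nova1 and Elavl1), with 1 hnRNP gene left out. This gave 48 of the 54986 genes in the table: 19 hnRNP genes, 13 genes of the SR group (11 Srsf genes, Tra2a and Tra2b) and 16 other regulators. The rule reads symbols and no measured value, and the list was drawn up with earlier results of these data known.

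Pre-mRNA splicing joins exons, and alternative splicing chooses which exons a messenger keeps. SR proteins bind exons through RNA recognition motifs and recruit the spliceosome through arginine- and serine-rich domains, whereas many hnRNP proteins coat the nascent transcript and can block or loop out an exon. Rbfox, Mbnl, Ptbp, Celf, Qk, Nova and Rbm47 proteins act with tissue preference, and during the epithelial-mesenchymal transition (EMT) several of them are known to set which isoforms an epithelial or a mesenchymal cell makes.

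All cells were NMuMG, an epithelial line derived from normal murine mammary gland, read in 10 conditions of 2 libraries each. The first 5 conditions were untreated NMuMG cells, NMuMG cells given TGFβ, a cytokine that drives EMT, for 4 d, NMuMG cells carrying an shRNA against hnRNP E1, the RNA-binding protein encoded by Pcbp1 (E1KD), and 2 lines grown out from E1KD cells that had been injected into the mammary fat pad of NOD/SCID mice aged 6 wk: M1P from the primary tumor and L1P from lung metastases. The other 5 were NMuMG cells with an empty expression vector, clones 12 and 16 that overexpress the long noncoding RNA Platr18, and E1KD cells with either a scrambled shRNA (E1KD SCR) or an shRNA against Platr18 (E1KD Platr18 KD). M1P and L1P therefore also carry the hnRNP E1 shRNA, each overexpression line is 1 clone, and the extraction protocol in the labels names 2D cultures. The labels do not say that the 2 libraries of a condition came from separate cultures, and p-values then measure the spread between these libraries, which may be technical. That spread was pooled over all 10 conditions, while the E1KD libraries lay farther apart than those of the others.

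The 2 sets of 5 conditions were kept apart, since the libraries differ in kind. The mitochondrial ribosomal RNA mt-Rnr2 had 333 to 492 CPM (read counts scaled to the depth of their library) in the first kind and 113874 to 165149 CPM in the second. Low values step by whole reads in 92.1% to 98.1% of cases, which means that 3 reads on a gene were worth 0.0204 to 0.0590 CPM. Pcbp1 followed its labels, at 287 and 312 CPM in untreated cells, 16.6 and 14.2 CPM in E1KD, 32.3 and 32.3 CPM with the empty vector and 3.28 and 3.46 CPM in E1KD SCR. The level of Platr18 (Lncenc1) was 1.24 and 1.45 CPM in NMuMG, with 17.9 and 14.6 CPM in E1KD, 813 to 3096 CPM in the clones and 0.136 and 0.170 CPM in E1KD Platr18 KD, but E1KD SCR (2.92 and 3.10 CPM) did not lie above the empty vector (3.68 and 3.06 CPM). The epithelial markers Cdh1, Krt8, Krt18 and Ocln were present in every condition while Epcam and Cldn3 were at or near 0, and the markers listed for lung epithelium, endothelium, neurons and red cells each stayed under 1 CPM. E1KD replicate 1 stood apart: its log2 value was above that of replicate 2 in 46 of 46 tested members (median difference 0.37) and by a median of 0.29 over all tested genes, and the counts for E1KD are therefore also given without that library.

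A gene was tested if it reached 1 CPM in at least 2 of the 20 libraries, which left 17106 genes and 46 of the 48 members. Rbfox1 and Srsf12 did not pass. Below, a transcript rose or fell if limma on log2(CPM + 1) gave a Benjamini-Hochberg adjusted p under 0.05 over all 17106 genes, and it was called if its unadjusted p was also under 0.001 with a log2 fold change of at least 1 in size. Fold changes on that scale understate the change of transcripts with few CPM, so plain ratios of the mean CPM are given beside them. Counts of members are set beside the percentage of all 17106 genes that met the same limit, the background.

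Most members were expressed in NMuMG cells, and the hnRNP and SR messengers filled the top of the range. Divided by the length of the merged exons, Hnrnpf was highest at 140.6 and 141 CPM per kb, followed by Srsf2 at 85.1 and 85.6 CPM per kb. Hnrnpab (61.9 and 64.7 CPM per kb), Hnrnpa1 (60.1 and 61.3 CPM per kb) and Ptbp1 (59.8 and 60.2 CPM per kb) came next, and of these the libraries of Hnrnpa1 and Ptbp1 overlap. At the other end lay regulators known from neurons and muscle: Nova1 had 0.998 and 1.01 CPM per kb, Celf2 0.701 and 0.706, Mbnl3 0.321 and 0.348, and Khdrbs3 0.0154 and 0.0242. Rbfox1, the neuronal and muscle Rbfox, and Srsf12 were at 0 in both NMuMG libraries, which allows up to 3 reads each.

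Lengths come from GENCODE M21, which held 45 of the members. The other 3, Srsf1, Celf1 and Hnrnpu, are listed on patch scaffolds of GRCm38 and have a further row at their chromosomal position whose values were 0.962 to 1.05 times as high in all 20 libraries, so that about equal parts of their reads stand in each row and their level is understated while their fold changes are not. In all, 14 members share a stretch of at least 200 bases at 95% identity with a pseudogene, Hnrnpa3 with 35 and Hnrnpa1 with 9 of them, and reads of these genes are uncertain. Khdrbs3, Mbnl2, Mbnl3, Qk and Rbm47 had no such stretch in another gene, and Nova1 shared one with 1 gene that is not a pseudogene. Celf2 (at most 41.6 CPM) overlaps, on the same strand, the small RNA gene Gm26315, which reached 1468 CPM, so that some of its reads are uncertain. Hnrnph3 (at most 8.50 CPM) lies across from Rufy2 (up to 20.3 CPM) on the opposite strand, and whether counting used strand is not given in the sources used here.

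**Figure D1:**
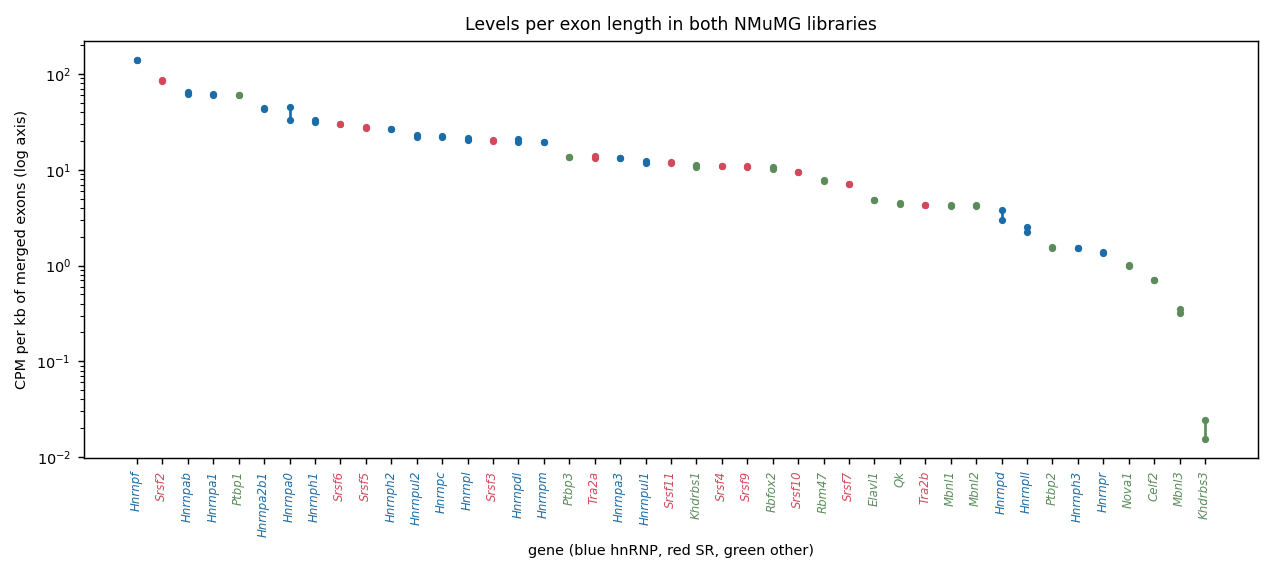
Levels of the members in untreated NMuMG cells, as CPM per kb of merged exons on a log axis. Each gene has 2 points, 1 per library, joined by a line, and the 2 members at 0 and the 3 on patch scaffolds are not drawn; Hnrnpf stands highest at 141 and Khdrbs3 lowest at 0.0154 to 0.0242.

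TGFβ lowered 2 regulators well beyond the others, Rbm47 and Mbnl3, and raised Qk by close to 1 log2 unit. Rbm47, an RNA-binding protein that regulates exon choice in epithelial cells, is transcribed from chr5:66016549-66173118 on the minus strand (GRCm38) and had 54.2 and 56.2 CPM in NMuMG against 9.16 and 9.93 CPM after TGFβ. Mbnl3, the muscleblind member of fetal and muscle tissue, lies at chrX:51117269-51206532 on the minus strand and had 3.04 and 2.81 CPM against 0.551 and 0.633 CPM. Both genes were lower in each treated library than in either untreated one, and both were called: Rbm47 was 5.78-fold lower (log2 fold change -2.41 ± 0.0858 SE, adjusted p = 9.8e-12, limma) and Mbnl3 4.94-fold lower (-1.30 ± 0.0979 SE, adjusted p = 3.7e-08).

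Qk, whose quaking protein shifts splicing toward mesenchymal isoforms and promotes circular RNA formation, moved the other way. It had 63.7 and 62.6 CPM in NMuMG and 122 and 126 CPM after TGFβ, a ratio of 1.97 (log2 fold change 0.97 ± 0.0836 SE, adjusted p = 1.7e-07), just short of the fold limit for a call. Rbfox2, a second regulator known for mesenchymal exon choice, rose from 83.7 and 87.1 to 124 and 129 CPM (ratio 1.48, log2 fold change 0.56, adjusted p = 8e-06). Mbnl2, Ptbp2, Ptbp3 and Srsf11 were the other members that rose, by log2 fold changes of 0.19 to 0.40.

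The hnRNP messengers moved mostly downward. Of the 19, 11 fell and 0 rose, with a family median of -0.35 on the log2 scale, and their largest drop was that of Hnrnpl, which binds CA-rich RNA, from 121 and 127 to 64.9 and 75.6 CPM (1.76-fold lower, adjusted p = 0.00015). Hnrnpul1 (1.52-fold lower, adjusted p = 0.0006) and Hnrnpa2b1 (1.43-fold lower, adjusted p = 0.0055) were among the others. In the SR group 6 of 12 fell, such as Srsf4 (1.51-fold lower) and Tra2b (1.52-fold lower), and Srsf11 alone rose. The other regulators divided evenly, with 5 of 15 higher and 5 lower, among the latter Nova1 at 8.73 and 8.81 CPM in NMuMG against 4.32 and 4.03 CPM (2.10-fold lower, adjusted p = 3.7e-06), Ptbp1 (1.38-fold lower, adjusted p = 0.0019) and Celf2.

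Together 6 of 46 members rose where the background was 21.8%, 22 fell where it was 33.6%, and 2 were called where it was 13.5%. The split was 6 higher and 30 lower with values rescaled to equal sums, beside 25.1% and 39.0% of all genes. With median-of-ratios factors it was 7 and 23, beside 29.9% and 32.5%, and in all 3 scalings 6 were higher and 21 lower. The median over all genes was -0.08 in this comparison and that of the members -0.26.

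**Figure D2:**
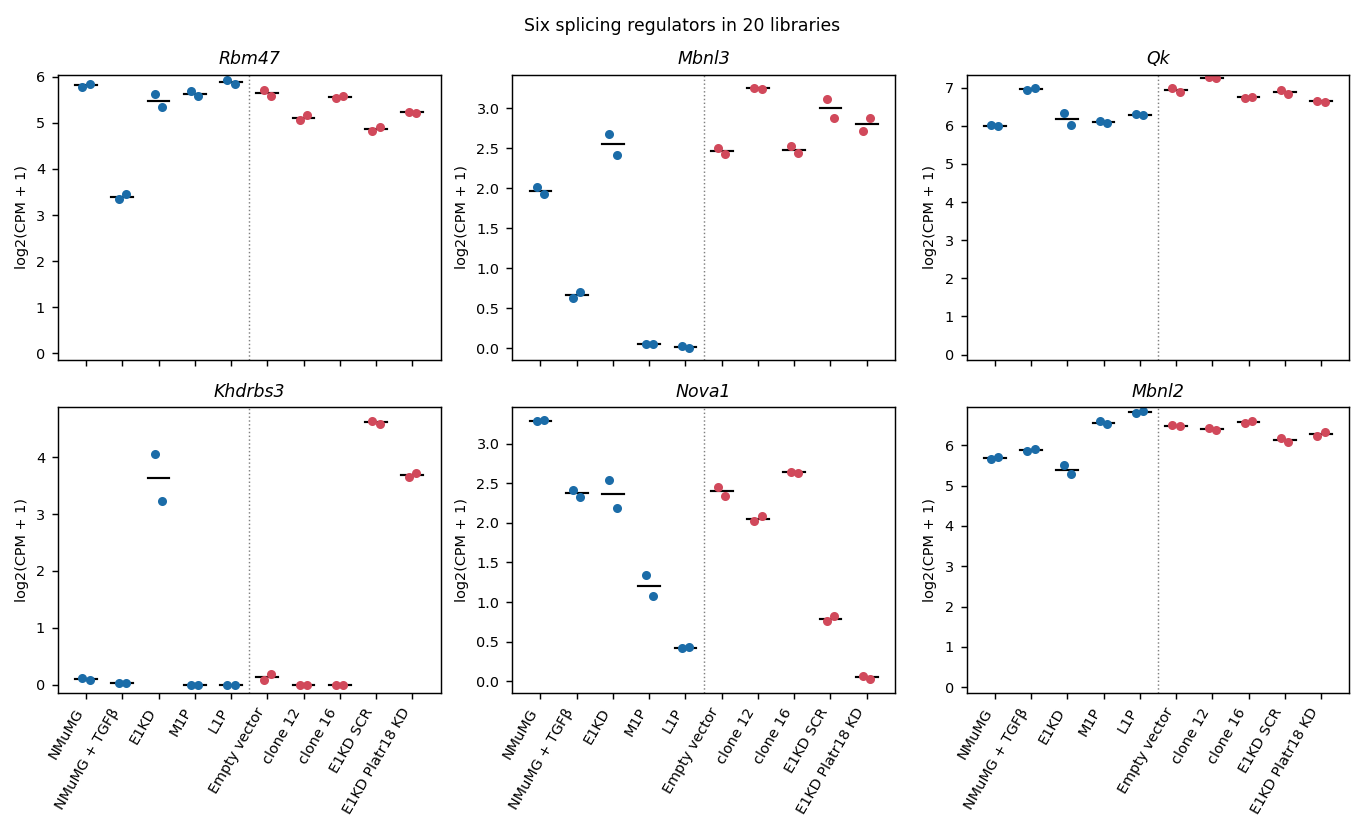
Levels of 6 members as log2(CPM + 1), 1 point per library and a line at each condition's mean; blue points left of the dotted line are the first kind of library and red points the second, and levels are not comparable across that line. Rbm47 is low after TGFβ alone among the first 5 conditions, Khdrbs3 is high in the E1KD conditions other than M1P and L1P, and Mbnl3 is near 0 in M1P and L1P.

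The bases before the annotated start of 3 of these genes are shown because Rbm47 and Mbnl3 fell and Qk rose after TGFβ. They were read from the RefSeq promoter table of GRCm38.p6, which has an entry for 42 of the 48 members, and each run is the 250 bases upstream of the start, 5′ to 3′, in lower case with CG dinucleotides in capitals. Rbm47 has 3 entries, of which the one farthest upstream is given (chr5:66151955-66152204, minus strand). Mbnl3 is at chrX:51205991-51206240 (minus strand) and Qk at chr17:10319362-10319611 (minus strand). The windows of Rbm47 and Mbnl3 lie inside the gene spans given above. They precede a RefSeq start that is downstream of the 5′ end of those spans. 
Rbm47: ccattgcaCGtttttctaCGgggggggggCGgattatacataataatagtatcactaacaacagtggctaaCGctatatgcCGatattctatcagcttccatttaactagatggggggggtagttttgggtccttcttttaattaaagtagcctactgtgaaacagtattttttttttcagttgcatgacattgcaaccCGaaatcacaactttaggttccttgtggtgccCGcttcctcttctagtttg
Mbnl3: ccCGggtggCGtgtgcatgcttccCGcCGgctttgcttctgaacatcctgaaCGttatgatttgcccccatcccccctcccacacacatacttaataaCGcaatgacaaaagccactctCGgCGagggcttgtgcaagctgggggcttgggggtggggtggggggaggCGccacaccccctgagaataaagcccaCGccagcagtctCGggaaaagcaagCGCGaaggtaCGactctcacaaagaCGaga
Qk: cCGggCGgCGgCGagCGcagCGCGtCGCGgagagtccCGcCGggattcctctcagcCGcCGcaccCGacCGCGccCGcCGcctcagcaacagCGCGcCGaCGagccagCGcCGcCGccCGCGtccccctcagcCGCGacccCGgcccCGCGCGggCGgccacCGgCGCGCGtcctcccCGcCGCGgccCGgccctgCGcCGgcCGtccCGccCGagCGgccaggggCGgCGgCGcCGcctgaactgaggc

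The Rbm47 run holds 7 CG dinucleotides, that of Mbnl3 15 and that of Qk 52. Members' promoters were rich in CG: their 62 entries had a median of 21, against 6 over all 32851 entries, and 16.1% of them held fewer than 10, against 62.2% of all. The E-box CAGGTG, searched on both strands, the letters bound by Snail and Zeb factors, was in 5 of the 62 (8.06%), those of Hnrnpf, Hnrnph3, Srsf1, Srsf2 and Srsf3, and in 17.2% of all entries. The AP-1 motif TGACTCA, also on both strands, was in 1 entry, that of Hnrnpa1 (1.61%, against 4.46% of all). None of the 3 runs printed holds either motif, which says only that these letters are not in these windows.

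Khdrbs3 was nearly absent in NMuMG and present in E1KD. An effect of silencing hnRNP E1 and a trait of the E1KD line cannot be told apart here. Khdrbs3 (T-STAR, also SLM2), a STAR-family protein known from brain and testis that recognizes U/A-rich RNA, lies at chr15:68928420-69101211 on the plus strand. It had 0.0885 and 0.0566 CPM in NMuMG, 5 and 3 reads, against 15.7 and 8.35 CPM in E1KD, and the ratio of scaled reads was 163, with a 95% interval of 82.4 to 378 that covers counting error only. Its log2 fold change was 3.54 ± 0.169 (SE, adjusted p = 3.2e-10), and it was the 1 member called, where the background was 9.44%. Khdrbs3 reached 1 CPM only in E1KD, E1KD SCR and E1KD Platr18 KD. It was thus tested only because it is high there, and the p-values of its rise are no separate support for that direction. After TGFβ the same gene had 1 read in each library.

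Nova1 (log2 fold change -0.92) and Hnrnpab (0.89) had the next largest changes, followed by Hnrnpd (0.76) and Celf2 (0.69), and Srsf2 was among the 3 members with the smallest p. Hnrnpab, which shuttles with messenger RNA, rose from 172 and 180 to 388 and 276 CPM (ratio 1.89, log2 fold change 0.89, adjusted p = 7.9e-06). Srsf2, an SR protein of exonic enhancers, rose from 252 and 253 to 411 and 367 CPM (ratio 1.54, 0.62 on the log2 scale, adjusted p = 1.6e-06). In both cases E1KD replicate 1 was the highest library and both E1KD libraries lay above both NMuMG libraries. Nova1, a neuronal splicing factor, fell from 8.73 and 8.81 to 4.82 and 3.57 CPM (2.09-fold lower, adjusted p = 4.7e-06).

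By family, 7 hnRNP genes rose and 2 fell, 7 SR genes rose and 2 fell, and 6 other regulators rose and 4 fell. That makes 20 of 46 higher beside a background of 39.6% and 8 lower beside 17.1%. These directions rest on the scaling: the median over all genes was 0.17 with CPM as deposited and 0.02 with median-of-ratios factors, and the split of the members went from 20 and 8 to 13 and 19 (17 and 17 with equal sums), beside 31.3% and 29.6% of all genes. The hnRNP genes then stood at 3 higher and 8 lower, and their median turned from 0.14 to -0.07. Without E1KD replicate 1 the split was 14 and 16, beside 29.9% and 27.7% of all genes, with 4 hnRNP genes higher and 7 lower (median -0.07), and Srsf7 (0.65 with both libraries) had a log2 fold change of 0.13 (adjusted p = 0.15). With only E1KD and NMuMG in the fit, 2 members met the limit, beside 12.1% of all genes. Among the members, 13 were higher and 8 lower in all 3 scalings. The 13 were Khdrbs3, Hnrnpab, Hnrnpd, Celf2, Hnrnpa0, Mbnl3, Elavl1, Tra2b, Srsf1, Srsf2, Srsf6, Srsf7 and Srsf10, and the 8 were Nova1, Mbnl2, Tra2a, Hnrnpf, Hnrnph2, Srsf11, Rbm47 and Celf1. Without E1KD replicate 1 and with median-of-ratios factors, a combination chosen after seeing the data, Khdrbs3 (3.14) and Nova1 (-1.10) were called, and without E1KD replicate 2 as many as 43 members met the limit, beside 73.3% of all genes, and 4 were called, beside 18.0%.

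The same silencing could be read a second time, in the libraries of the second kind, as E1KD SCR against the empty vector. The 2 readings were not alike in the summed level of 5 mesenchymal markers (Vim, Cdh2, Fn1, Zeb1 and Snai1). It was 530 to 551 CPM in NMuMG and 1333 to 1812 CPM in E1KD. In the second kind it was 642 to 681 CPM with the empty vector and 751 to 816 CPM in E1KD SCR. Khdrbs3 had 0.0548 and 0.145 CPM with the empty vector and 24.04 and 23.05 CPM in E1KD SCR, a ratio of 239 (95% interval 142 to 438, counting error only), and its log2 fold change was 4.48 ± 0.169 (SE, adjusted p = 3.2e-11). Nova1 fell from 4.48 and 4.05 to 0.690 and 0.762 CPM, 5.87-fold (log2 fold change -1.61, adjusted p = 1.8e-08), and was called as well. Rbm47 fell from 51.1 and 46.7 to 27.4 and 29.1 CPM (1.73-fold lower, log2 fold change -0.77, adjusted p = 5.2e-06). For each of these 3 genes both E1KD SCR libraries lay on the same side of both empty vector libraries.

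In this comparison 11 of 46 members rose beside a background of 23%, 4 fell beside 19.6% and 2 were called beside 5.98%. The 11 were Khdrbs3, Mbnl3 (ratio 1.55), Srsf2 (1.32), Srsf10 (1.31), Hnrnpab (1.29), Srsf1, Srsf6, Tra2b, Hnrnpa0, Hnrnpa3 and Rbfox2, and the 4 that fell were Nova1, Rbm47, Mbnl2 and Hnrnpdl; all 15 met the limit in the same direction in each of the 3 scalings. Across the kinds, 10 members rose in both silencing comparisons, 3 fell in both, 0 went in opposite directions and 16 met the limit in neither. As shares these were 21.7%, 6.52%, 0% and 34.8% of the members, against 18.6%, 11.4%, 1.5% and 32.3% of all genes. The 3 were Nova1, Rbm47 and Mbnl2. These 2 comparisons share no library. The labels do not say whether E1KD and E1KD SCR were silenced separately. An effect of silencing and a trait of 1 silenced line therefore cannot be told apart.

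The difference between the silencing effects was tested in the same fit, and 6 of 46 members met the limit beside a background of 21.3%. On the log2 scale silencing had the larger effect in the second kind for Khdrbs3 (difference, first minus second kind, -0.94, adjusted p = 0.012), Nova1 (0.69, adjusted p = 0.0045) and Rbm47 (0.44, adjusted p = 0.02). For Khdrbs3 the ratios of scaled reads were 163 (82.4 to 378) and 239 (142 to 438), and these intervals of counting error overlap. Its controls had few reads, so with 1 CPM added the log2 difference mostly follows the CPM reached on silencing. A larger fold change of Khdrbs3 in the second kind is therefore not shown. For Hnrnpab (0.53, adjusted p = 0.025) and Celf2 (0.47, adjusted p = 0.022) the rise was larger in the first kind, and Hnrnph2 (-0.34, adjusted p = 0.0047) was lower in E1KD than in NMuMG and 0.13 log2 units above the empty vector in E1KD SCR, where it missed the limit. With median-of-ratios factors 15 members met it, and Rbm47 did not (0.23, adjusted p = 0.056), beside 29.97% of all genes. The count was 34 without E1KD replicate 2, 12 without E1KD replicate 1 and 3 without NMuMG replicate 1, beside 63.7%, 29.6% and 14.7% of all genes. The kinds also differ in the vectors and in the residual Pcbp1 level, whose part in these differences was not tested.

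**Figure D3:**
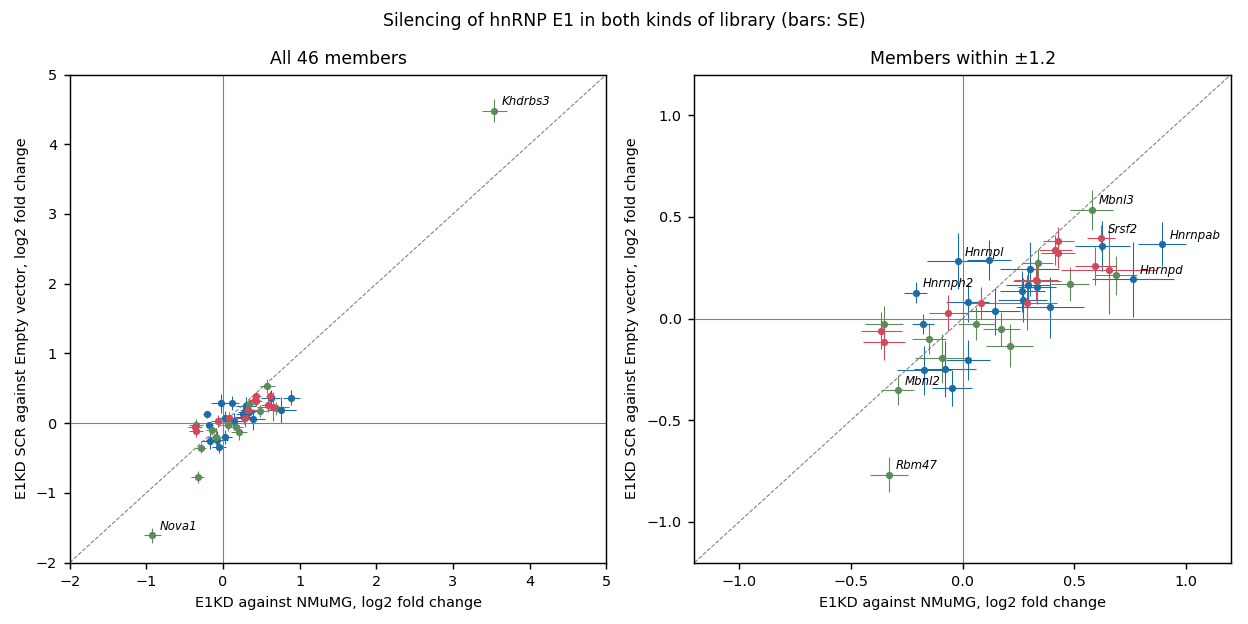
Log2 fold changes of the 46 members on silencing of hnRNP E1, in the first kind of library (horizontal) and the second (vertical), with SE bars (blue hnRNP, red SR and Tra2, green other regulators); the right panel enlarges the centre, and the dashed line marks equal changes. Khdrbs3 lies far from the rest at 3.54 and 4.48, and Nova1 at -0.92 and -1.61.

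E1KD and TGFβ-treated cells differ in these regulators in many members, and 8 were called. All 8 were higher in E1KD: Khdrbs3 (log2 fold change 3.62), Rbm47 (2.08), Mbnl3 (1.88), Hnrnpd (1.30), Hnrnpab (1.25), Tra2b and Srsf2 (1.17 each) and Celf2 (1.01), each with an adjusted p of at most 2e-05. Rbm47 had 48.0 and 39.7 CPM in E1KD and 9.16 and 9.93 CPM after TGFβ, 4.60-fold apart, and Mbnl3 5.41 and 4.34 against 0.551 and 0.633 CPM, 8.24-fold apart. Hnrnpd, the AU-rich element binding protein AUF1, had 55.9 and 32.4 CPM in E1KD and 15.3 and 18.2 CPM after TGFβ, and Tra2b, a splicing activator of the SR type, 69.3 and 52.3 against 26.3 and 26.0 CPM. In E1KD 8 members were lower, with Qk (1.73-fold, log2 fold change -0.79, adjusted p = 9.6e-07) and Srsf11 (1.68-fold, -0.75, adjusted p = 4.7e-06) at their head.

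In all 32 of 46 were higher in E1KD beside a background of 50.4%, 8 lower beside 21.1%, and 8 called beside 23.3%. With median-of-ratios factors the counts were 27 and 14, beside 39.9% and 34.0% of all genes, and the called 5, beside 20.8%. The median over all genes went from 0.26 to 0.03 with these factors. In all 3 scalings 27 were higher and 8 lower. Without E1KD replicate 1 there were 30 higher and 10 lower, beside 43.3% and 27.8% of all genes, the called were 5, beside 19.2%, and Hnrnpd, Celf2 and Tra2b had log2 fold changes of 0.92, 0.82 and 0.97. Both comparisons with NMuMG share its libraries with each other, and this one is their difference.

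**Figure D4:**
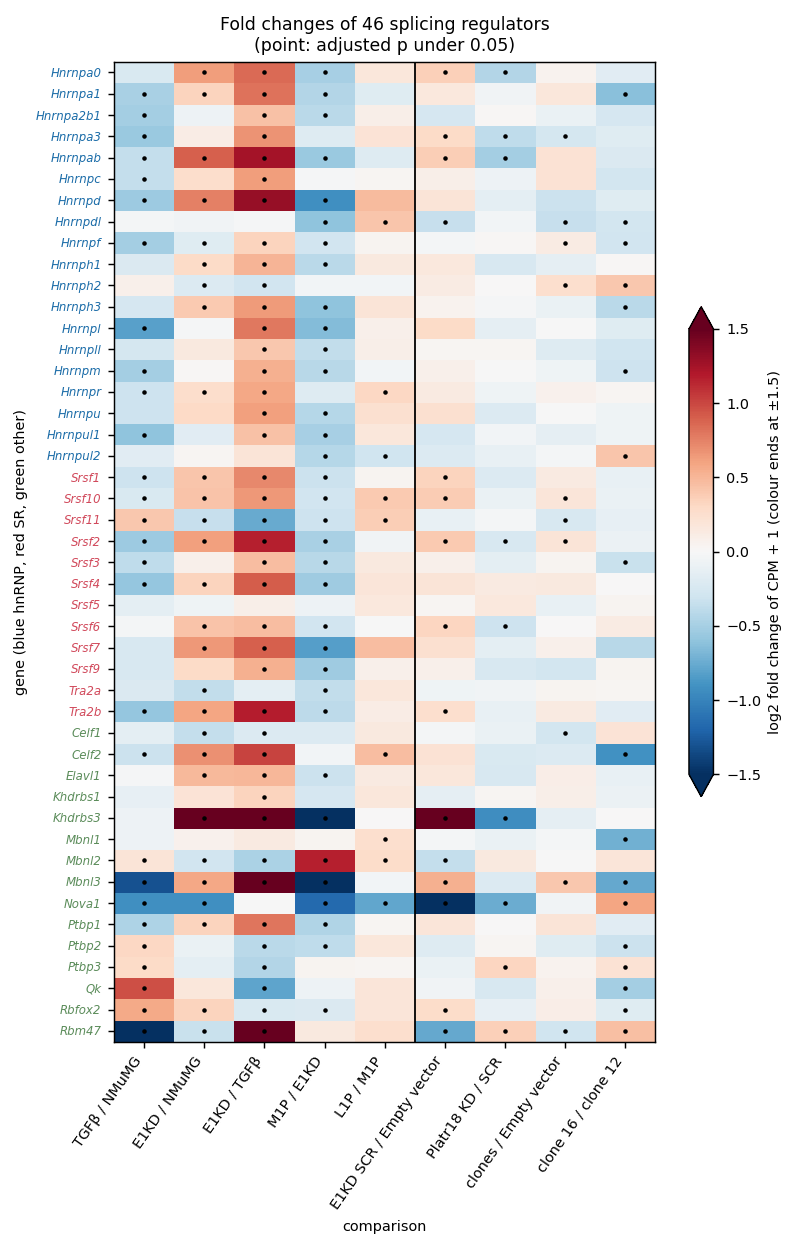
Log2 fold change of each tested member (rows, grouped as hnRNP, SR and other regulators) in the 9 comparisons (columns); red is higher and blue lower in the group named first, the colour ends at 1.5 in size, and a point marks an adjusted p under 0.05. The vertical line separates the kinds of library; most hnRNP rows are blue in the TGFβ column and in M1P against E1KD, and the strongest colours lie in Khdrbs3, Mbnl3, Nova1 and Rbm47.

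In the line regrown from the primary tumor, Khdrbs3 and Mbnl3 were almost absent, Nova1 was lower and Mbnl2 higher than in the E1KD cells that had been injected. Khdrbs3 went from 796 and 452 reads in E1KD (15.7 and 8.35 CPM) to 0 reads in both M1P libraries, at least 228-fold lower against 3 reads per library (log2 fold change -3.64, adjusted p = 6e-10). Mbnl3 went from 5.41 and 4.34 CPM to 0.0349 and 0.0354 CPM, 2 reads in each library, an E1KD to M1P ratio of 138 (95% interval 53.7 to 509, counting error only). L1P had 0 reads of Khdrbs3 in both libraries and 1 and 0 reads of Mbnl3. Untreated NMuMG cells had 172 and 149 reads of Mbnl3, so M1P and L1P lie below the line they descend from in this gene, and Khdrbs3 is back at or under its NMuMG level.

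Mbnl2, the muscleblind paralog that favors adult isoforms in brain and muscle, went from 44.9 and 37.9 CPM in E1KD to 96.3 and 91.6 CPM in M1P (ratio 2.27, log2 fold change 1.17 ± 0.0738 SE, adjusted p = 2.1e-08), with 112 and 116 CPM in L1P. It lies at chr14:120275669-120431697 on the plus strand. The 2 muscleblind genes moved in opposite directions, and the third, Mbnl1, had 92.3 and 74.6 CPM in E1KD and 89.0 and 81.9 CPM in M1P, which overlap. Nova1 fell again, from 4.82 and 3.57 to 1.54 and 1.10 CPM (3.18-fold lower, log2 fold change -1.16, adjusted p = 1.1e-06). With Mbnl2 higher and the other 3 genes lower, 4 members were called beside a background of 3.59%.

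Of the family members 15 of 19 hnRNP genes, 11 of 12 SR genes and 7 of 15 other regulators fell from E1KD to M1P, 33 in all beside a background of 37%, and Mbnl2 alone rose beside 12.1%. With only E1KD and M1P in the fit, 2.38% of all genes met the limit in either direction, against 49.1% in the main fit. Hnrnpd (2.00-fold lower, adjusted p = 0.0013) and Srsf7 (1.94-fold lower, adjusted p = 0.0061) had the largest drops in their families with both E1KD libraries. Without E1KD replicate 1 they were 1.47-fold and 1.24-fold lower, and Srsf2 at 1.32-fold had the largest drop of the SR group. E1KD replicate 1, the library that reads high throughout, weighs on this: with median-of-ratios factors 8 rose and 24 fell (7 and 29 with equal sums), beside 24.7% and 26.4% of all genes, without that library 5 rose and 27 fell, beside 21.2% and 23.1%, the median over all genes went from -0.17 to -0.01, and 1 rose and 24 fell in all 3 scalings. With those factors and without E1KD replicate 1, Khdrbs3, Mbnl3, Mbnl2 and Nova1 had log2 fold changes of -3.25, -2.39, 1.29 and -0.99, so Nova1 ended just short of a call. The summed level of 4 leukocyte markers was 1.85 to 2.68 CPM in E1KD and 5.51 to 6.83 CPM in M1P and L1P. Lyz2 read 2.87 to 4.74 CPM in the M1P and L1P libraries, against 0.276 and 0.166 CPM for E1KD. Cd68 differed less: M1P (2.79 and 2.57 CPM) lay above E1KD (2.40 and 1.66 CPM), while L1P (1.81 and 2.06 CPM) overlapped it. Adgre1 was at 0 and Ptprc at most 0.0709 CPM in these conditions, and lung markers summed to at most 0.0194 CPM in L1P. In such bulk libraries fewer cells that make a transcript and less of it per cell cannot be told apart.

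L1P and M1P were close. In L1P 7 of 46 members were higher beside a background of 11.2%, 2 were lower beside 7.3% and 0 were called by limma beside 1.21%. At an unadjusted p under 0.05 there were 15 of 46, a count for which no share of all genes was taken. Nova1 went from 1.54 and 1.10 CPM in M1P to 0.334 and 0.349 CPM in L1P, a further 3.86-fold drop (log2 fold change -0.78, adjusted p = 0.00013). Its CPM thus fell along NMuMG, E1KD, M1P and L1P without overlap between neighbouring conditions. Leaving out any 1 of the 4 libraries left 4 or 5 members past the limit, and equal sums gave 22 higher and 4 lower, beside 20.5% and 11.7% of all genes. Hnrnpul2 was the other that was lower, and Srsf10 (ratio 1.31, adjusted p = 0.0011), Celf2 (ratio 1.40, adjusted p = 0.0031), Mbnl1, Mbnl2, Hnrnpdl, Hnrnpr and Srsf11 were higher. Hnrnpd, with 23.4 and 20.8 CPM in M1P against 31.3 and 30.7 CPM in L1P, missed the limit (log2 fold change 0.47, 95% interval 0.06 to 0.88, adjusted p = 0.1).

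In E1KD Platr18 KD, Khdrbs3 was lower than in E1KD SCR but still high, and Nova1 was close to 0. Both libraries carry the label of the same Platr18 shRNA, so an effect of silencing Platr18 and a trait of that line cannot be told apart. Khdrbs3 had 24.04 and 23.05 CPM in E1KD SCR and 11.5 and 12.2 CPM in E1KD Platr18 KD, 1.98-fold lower (log2 fold change -0.93 ± 0.169 SE, adjusted p = 0.0013). Nova1 had 0.690 and 0.762 CPM against 0.0475 and 0.0204 CPM, and its 99 and 10 reads gave a ratio of 21.3 (95% interval 11.1 to 45.8, counting error only; log2 fold change -0.74, adjusted p = 0.00018). Hnrnpab fell from 334 and 348 to 239 and 239 CPM (1.42-fold, adjusted p = 0.0039). For all 3 genes the 2 conditions do not overlap, and for Khdrbs3 and Hnrnpab the drop runs against their rise on silencing of hnRNP E1, while for Nova1 it runs with its fall; the comparisons share the E1KD SCR libraries.

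Hnrnpa0, Hnrnpa3, Srsf2 and Srsf6 also fell, which makes 7 of 46 beside a background of 11%, and Rbm47 (27.4 and 29.1 to 36.5 and 36.3 CPM, adjusted p = 0.0094) and Ptbp3 (ratio 1.25, adjusted p = 0.0085) rose, 2 of 46 beside 8.45%. By limma 0 were called beside 1.48%, and 14 of the 46 had an unadjusted p under 0.05, a count without a share of all genes to set beside it. The 9 members met the limit in the same direction in all 3 scalings, and without 1 of the libraries the count was 3 to 6, the lowest without E1KD Platr18 KD replicate 1.

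Overexpression of Platr18 moved 0 of 46 members past the limit in the same direction in both clones. Of all genes, 3.98% were higher in both and 5.55% lower in both. Clone 12 alone gave 16 of 46 members past it and clone 16 alone 7, beside 39.6% and 23.2% of all genes, and the 2 past it in both, Celf2 (0.25 and -0.66 on the log2 scale) and Mbnl1 (0.32 and -0.39), went in opposite directions. That was 4.35% of the members, against 4.48% of all genes. For the mean of the clones against the empty vector 5 of 46 members were higher beside a background of 13.2%, 5 lower beside 15.6% and 0 called by limma beside 1.46%. An unadjusted p under 0.05 was found for 16, without a share of all genes to set beside it. Hnrnph2 had 51.4 and 52.4 CPM with the empty vector, 54.6 and 53.2 CPM in clone 12 and 71.5 and 72.1 CPM in clone 16, and its mean rise (log2 fold change 0.26, adjusted p = 0.00069) is that of clone 16, as clone 12 alone gave 0.05 (adjusted p = 0.47). Mbnl3 shows the reverse, with 4.68 and 4.37 CPM with the empty vector, 8.59 and 8.50 CPM in clone 12 and 4.77 and 4.43 CPM in clone 16 (mean log2 fold change 0.40, adjusted p = 0.0026, and 0.02, adjusted p = 0.95, for clone 16 alone). Hnrnpdl was lower (112 and 116 against 97.9, 98.7, 80.9 and 80.9 CPM; log2 fold change -0.35, adjusted p = 0.0036), with -0.21 (adjusted p = 0.077) in clone 12 and -0.49 (adjusted p = 0.0012) in clone 16 alone, and Hnrnpd at -0.32 missed the limit (95% interval -0.68 to 0.03, adjusted p = 0.16). The count of 10 was 4 without either empty vector library, beside 17.4% and 19.2% of all genes, and 24 with equal sums, beside 40.5%. Khdrbs3 had 0 reads in each of the clone libraries.

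The clones differed from each other in 17 of 46 members. In clone 16 5 were higher beside a background of 23.7%, 12 lower beside 18.9% and 0 called by limma beside 4.38%. An unadjusted p under 0.05 was found for 21, again without a share of all genes. Celf2, a CUG-binding regulator of brain and heart, had 27.2 and 25.6 CPM in clone 12 and 13.6 and 13.5 CPM in clone 16 (1.95-fold, log2 fold change -0.91, adjusted p = 3.1e-06), on either side of the 22.03 and 22.03 CPM of the empty vector. Mbnl1 had 349 and 342 against 209 and 211 CPM (1.65-fold, adjusted p = 7.8e-06), again around the 283 and 268 CPM of the vector, and Mbnl3 differed 1.86-fold (adjusted p = 2.1e-05). Without clone 12 replicate 2 or clone 16 replicate 1 the count of 17 was 11, beside 33.6% and 33.8% of all genes, and with equal sums it was 32, beside 52.5%. Hnrnpa1 (1.55-fold lower in clone 16) and Hnrnph2 (1.33-fold higher) are further examples. Since each clone is 1 line, a difference of clones and an effect of their Platr18 level cannot be told apart.

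**Figure D5:**
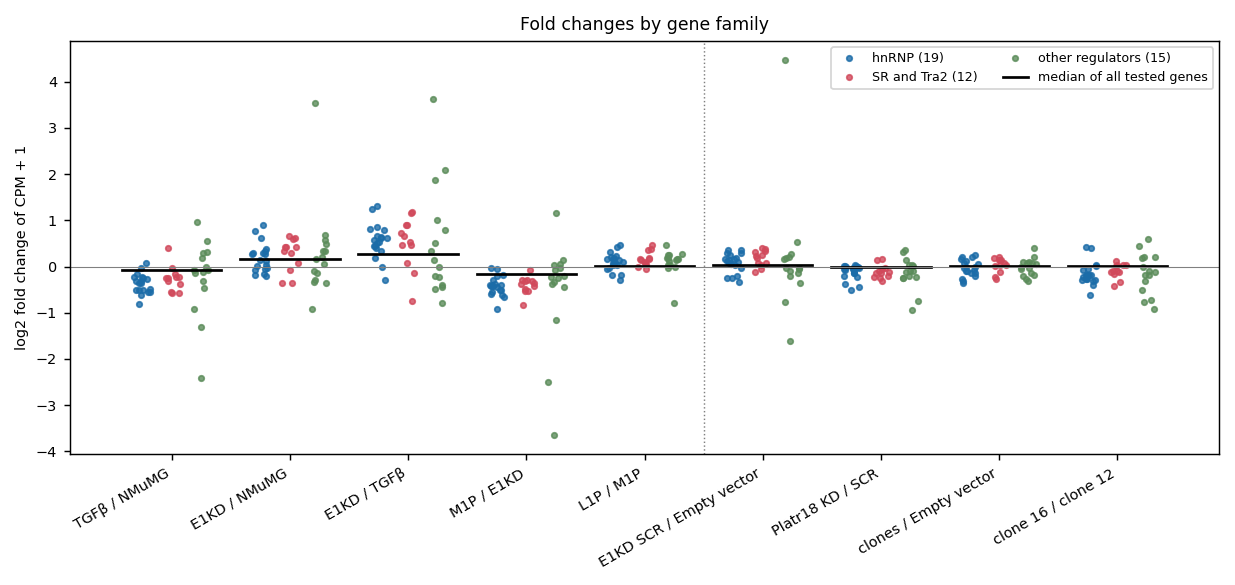
Log2 fold changes of the 46 tested members by family (blue hnRNP, red SR and Tra2, green other regulators), 1 point per gene, in the 9 comparisons, with a black line at the median of all 17106 genes. In M1P against E1KD all hnRNP points lie between -0.92 and -0.02 and all SR points between -0.83 and -0.07, and the points beyond 2 in size, Khdrbs3, Mbnl3 and Rbm47, are all other regulators.

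Related splicing genes outside the members were read from 3 lists: 32 genes of the snRNPs and the spliceosome core, 8 SR protein kinases (7 tested) and 36 further RNA-binding regulators (26 tested). The core genes that met the limit lay mostly on one side in several comparisons. After TGFβ 1 rose and 19 of 32 fell (median log2 fold change -0.47), where 33.6% of all genes fell, and median-of-ratios factors gave 1 and 22. In M1P against E1KD 0 rose and 28 fell (median -0.68), where 37% of all genes fell. In E1KD against NMuMG 20 rose and 0 fell (median 0.51), where 39.6% of all genes rose, and in E1KD against TGFβ 30 and 0 (median 1.06), where 50.4% rose. With median-of-ratios factors these last 3 were 1 and 27 (median -0.47), 19 and 1 (0.29), and 28 and 0 (0.73). Without E1KD replicate 1 they were 3 and 19 (median -0.27), 10 and 2 (0.10, where 29.9% of all genes rose and 27.7% fell), and 29 and 1 (0.63), so that in E1KD against NMuMG the share that rose, 31.25%, was close to the background. In E1KD SCR 5 rose and 0 fell, where 23% of all genes rose, and 12 and 0 with median-of-ratios factors and 13 and 0 with equal sums, where 28.7% and 30.6% rose. For the clones against the empty vector 3 rose and 0 fell, where 13.2% of all genes rose. In clone 16 against clone 12 0 rose and 7 fell, where 18.9% of all genes fell. With median-of-ratios factors these were 9 and 0, and 2 and 16, where 21.4% rose and 29.1% fell. Between L1P and M1P 0 of 32 met the limit.

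Sf3a1, a subunit of the SF3A complex of the U2 snRNP, went from 28.4 and 29.0 CPM in NMuMG to 83.8 and 48.9 CPM in E1KD, and was called together with Snrpd1, an Sm protein, and Eftud2, the GTPase of the U5 snRNP (log2 fold changes 1.13, 1.03 and 1.25). In E1KD replicate 1 and 2 Snrpd1 had 22.2 and 9.05 CPM and Eftud2 74.4 and 35.7 CPM, so the 2 libraries stand far apart, and without replicate 1 the 3 genes had log2 fold changes of 0.75, 0.43 and 0.73 and none was called. Srpk2, a kinase that phosphorylates SR proteins, rose after TGFβ from 32.4 and 32.7 to 73.5 and 74.0 CPM (log2 fold change 1.16) and was called. Elavl2, a neuronal Hu protein, was at 0 reads in NMuMG and with the empty vector and was called in both silencing comparisons, with 1.54 and 1.33 CPM in E1KD and 1.03 and 1.16 CPM in E1KD SCR. Unlike Khdrbs3 it remained detected in M1P (1.71 and 1.60 CPM) and L1P (1.98 and 2.10 CPM). Elavl2 too passed the filter only through conditions that carry the hnRNP E1 shRNA, so the direction of its calls was set by that filter. Esrp2, an epithelial splicing regulator, had 35.1 and 37.8 CPM in NMuMG and 24.4 and 26.3 CPM after TGFβ (log2 fold change -0.51, adjusted p = 0.00055), and its paralog Esrp1 had at most 0.297 CPM in all 20 libraries.

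Between E1KD and TGFβ 16 of 32 core genes were called, all higher in E1KD, where 23.3% of all genes were called, namely Sf3a1, Sf3a2, Sf3a3, Sf3b5, Sf3b6, Snrpa, Snrpb, Snrpd1, Snrpd2, Snrpe, Snrpg, Snrnp200, Prpf4, Prpf8, Eftud2 and U2af2, with log2 fold changes of 1.06 to 1.73. Without E1KD replicate 1 the called were 5, Snrpd1, Sf3a2, Eftud2, Prpf4 and Sf3b5, where 19.2% of all genes were called. Taf15, Ybx1, Rbm10 and Elavl2 of the further regulators were called higher as well, Srpk2 was lower (-1.60), and Taf15 was also called after TGFβ (-1.06). Snrpd2 and Snrpg (-1.11) were called lower in M1P against E1KD, and without E1KD replicate 1 had log2 fold changes of -0.44 and -0.62 and were not called. Called as well was Celf5, a CELF protein of the brain, in L1P against M1P (1.17). Of the 7 kinases 1 rose and 3 fell in E1KD, 1 and 1 after TGFβ, 0 and 3 in M1P and 1 and 3 in E1KD SCR, and of the 26 further regulators 9 and 5, 4 and 9, 4 and 10, and 4 and 6. In the same order 39.6% and 17.1%, 21.8% and 33.6%, 12.1% and 37%, and 23% and 19.6% of all genes rose and fell. The directions of this last list rest on the scaling and on 1 library: with median-of-ratios factors it gave 8 and 12, 4 and 10, 10 and 6, and 7 and 7, and without E1KD replicate 1 it gave 6 and 12 in E1KD and 10 and 7 in M1P. The kinases were 1 and 5 in E1KD and 3 and 2 in M1P without that library.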

How the data were processed

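RNA was read from 20 libraries, 2 for each of 10 conditions, grouped by the labels. The authors aligned the reads to the mouse genome (GRCm38.p6 and Bowtie2 2.2.5 per the submitters' processing notes), counted them against GENCODE M18 in Partek, and deposited CPM values with 0.0001 added to every value. That addition was taken off the CPM values printed here, and the authors' CPM was taken to log2 after adding 1 CPM. Low values stepped by whole reads in 92.1% to 98.1% of cases (tolerance 0.05 reads), too few for counts to be recovered and tested as such, so reads are given only for transcripts with few of them, and their 95% intervals cover counting error only. From these steps 3 reads, the limit a count of 0 allows, were 0.0204 to 0.0590 CPM in the deepest and the shallowest library.

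Genes that reached 1 CPM in 2 or more libraries were fitted with limma 3.58.1 (R 4.3.3; lmFit and eBayes with a trend), as 10 condition means over all 20 libraries with 10 residual degrees of freedom, and p-values were adjusted by Benjamini-Hochberg over all 17106 genes. The limits for a call, an unadjusted p under 0.001 and a log2 fold change of at least 1, follow the guide lines of volcano plots in the study. Conditions were compared only within a kind of library, since no label names the 2 kinds. Alternatives were another pseudocount, no filter or a mean of at least 5 CPM, values rescaled to equal sums, median-of-ratios factors, only the same kind of library, only the compared groups, a replicate block, each clone alone and each library left out. The fit was tested on simulated data first. Named with values were every member called in a comparison and, in each comparison, the 3 with the smallest p and the 3 with the largest fold change. Other members given as examples were chosen after their values were seen. The members, the lists and the tests were chosen with earlier results of these data known. Pseudogene stretches were found with BLAST+ 2.17.0 against GENCODE M21 transcripts. Figures were drawn with matplotlib 3.10.9 in Python 3.11.15. A few single genes are left unreported.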

Additional observations from a re-analysis of the deposited data

Results flagged for a closer look

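The effect of silencing hnRNP E1 differed between the 2 kinds of library in 6 of 46 members, beside 21.3% of all genes, by the limma contrast of E1KD against NMuMG minus E1KD SCR against the empty vector. On the log2 scale the differences were 0.47 for Celf2 (0.69 in the first kind and 0.21 in the second), 0.53 for Hnrnpab (0.89 and 0.37), 0.69 for Nova1 (-0.92 and -1.61), -0.94 for Khdrbs3 (3.54 and 4.48), -0.34 for Hnrnph2 (-0.21 and 0.13) and 0.44 for Rbm47 (-0.33 and -0.77). With median-of-ratios factors they were 0.27, 0.32, 0.51, -1.12, -0.55 and 0.23 in that order, and that of Rbm47 then had an adjusted p of 0.056. Leaving out 1 library gave 3 to 34 members, the lowest without NMuMG replicate 1 and the highest without E1KD replicate 2, where 14.7% and 63.7% of all genes met the limit. Platr18 was 2.87 log2 units higher in E1KD than in NMuMG and its log2 fold change in E1KD SCR against the empty vector was -0.12, and the part of that in these differences was not tested. The ratios of scaled reads of Khdrbs3, 163 and 239, had overlapping intervals of counting error. Its log2 difference therefore does not show a larger fold change in the second kind.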

How the results depend on the processing

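Of the 449 values of single named genes under an alternative 0 changed direction, and 433 kept their side of the limit, 9 lost it and 7 gained it. Counts did shift between directions: in E1KD against NMuMG the split of higher and lower members was 20 and 8, 13 and 19 with median-of-ratios factors, and 14 and 16 without E1KD replicate 1. The counts below are members of 46, in the order of the comparisons named. With a pseudocount of 0.1 CPM, 2 were called in E1KD against NMuMG, 1 in L1P against M1P and 1 in E1KD Platr18 KD, beside 13.8%, 2.72% and 3.70% of all genes. Among genes with a mean of at least 5 CPM, 0 were called in E1KD against NMuMG, 1 after TGFβ, 1 in M1P against E1KD and 0 in E1KD SCR against the empty vector, since Khdrbs3, Mbnl3 and Nova1 are not tested there. The shares of all such genes were 8.23%, 14.8%, 2.86% and 4.84%. Without a filter, 11 met the adjusted limit between the clones, beside 13.5% of all 54986 genes.

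With equal sums 2 were called in E1KD against NMuMG and 5 in E1KD against TGFβ, beside 9.01% and 22.3% of all genes. In that setting 26 met the limit in L1P, 24 in the clones, 32 between the clones, 27 in E1KD SCR, 17 in E1KD Platr18 KD and 16 in the difference between kinds, where the shares of all genes were 32.3%, 40.5%, 52.5%, 53.0%, 30.8% and 31.0%. With median-of-ratios factors, the counts in that order were 2, 5, 14, 23, 30, 26, 17 and 15, and the shares 8.48%, 20.8%, 28.5%, 41.6%, 53.8%, 53.3%, 31.1% and 29.97%. With those factors and without E1KD replicate 1, chosen after seeing the data, the members' median log2 fold change was 0.02 in E1KD against NMuMG and 0.20 in E1KD against TGFβ. Over all genes these medians were 0 and 0.03.

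Within the same kind of library 17 met the limit in M1P against E1KD, 2 in L1P, 25 in the clones, 31 between the clones, 31 in E1KD SCR and 23 in E1KD Platr18 KD, where the shares of all genes were 27.9%, 9.76%, 47.6%, 58.7%, 58.8% and 36.6%. With only the compared groups 2 met it in E1KD against NMuMG, 14 in E1KD against TGFβ, 2 in M1P, 27 in L1P, 25 in the clones, 28 between the clones, 25 in E1KD SCR and 21 in E1KD Platr18 KD, with shares of 12.1%, 32.8%, 2.38%, 36.6%, 41.3%, 50.7%, 51.5% and 36.4%. Called were 4 in E1KD against TGFβ and 2 in M1P, beside 7.99% and 1.60% of all genes. Clone 12 alone gave 16 against the empty vector, beside 39.6%.

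Leaving out 1 library gave 23 to 43 past the limit in E1KD against NMuMG (43 without E1KD replicate 2), 20 to 27 after TGFβ, 36 to 41 in E1KD against TGFβ, 26 to 42 in M1P, 4 to 5 in L1P, 4 to 7 in the clones, 11 to 13 between the clones, 11 to 12 in E1KD SCR, 3 to 6 in E1KD Platr18 KD and 3 to 34 in the difference. The called were 1 to 4 in E1KD against NMuMG, 5 to 12 in E1KD against TGFβ and 3 to 6 in M1P, and 2, 2, 0, 0, 0 and 0 in the others. A condition left with 1 library was assumed to vary like the rest. The shares of all genes also moved with the library left out, so these ranges are not read as a trait of the members.

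Same-numbered libraries of compared conditions deviated together with correlations of -0.39 to 0.29, so the numbers do not pair the samples. A replicate block gave 28 in E1KD against NMuMG, 28 after TGFβ, 40 in E1KD against TGFβ, 34 in M1P, 8 in L1P, 9 in the clones, 16 between the clones, 15 in E1KD SCR and 10 in E1KD Platr18 KD, and 6 in the difference. The shares of all genes in that order were 56.0%, 54.8%, 71.3%, 47.9%, 18.1%, 28.1%, 41.9%, 41.9%, 18.9% and 20.6%. The cause of these shifts was not tested.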
